A study of Mus musculus with 9 samples.

Results

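Transcript levels of Hif1a and 9 genes that hypoxia-inducible factor (HIF) is known to switch on outside glycolysis were followed in BV2 cells, an immortalized line of mouse microglia, the resident macrophages of the brain. The genes were Hif1a itself, the oxygen sensor genes Egln1 and Egln3, the mitophagy receptor genes Bnip3 and Bnip3l, and Ndrg1, Kdm3a, Mxi1, Higd1a and Fam162a. They were picked by name, with earlier results of these data known. All 10 were among the 6462 genes of the deposited FPKM table (fragments per kilobase of transcript, scaled to the number of mapped fragments). They were also among the 5643 genes tested. The cells had been given no LPS (untreated, 0 h) or 200 ng/ml of bacterial lipopolysaccharide (LPS), an agonist of Toll-like receptor 4, for 1 h or 12 h. Each of the 3 groups had 3 libraries, 9 in all. The labels give no separate untreated cultures for 1 h and 12 h, so LPS and time in culture cannot be told apart, and nothing in them ties the 3 libraries of a time to independent cultures. P-values therefore measure the spread between these libraries only.

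HIF-1α is made continuously and, where oxygen is plentiful, is marked for destruction by prolyl hydroxylases, among them the enzymes encoded by Egln1 and Egln3, which let the von Hippel-Lindau protein recognise it. When hydroxylation stops, HIF-1α pairs with ARNT and binds a short DNA core, ACGTG or GCGTG, near its target genes. In macrophages HIF-1α is also known to build up after LPS, and its gene is known as a target of NF-κB. Because HIF-1α is controlled largely as a protein, the levels below describe messenger RNA and not HIF activity.

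Every gene in the authors' deposited table carries a q-value of at most 0.0999, so the table holds genes picked for a difference among these same samples, and a share of called genes is read here against that selected background. Of 11 microglial marker genes looked for, 7 were in the table, and their levels differed with time. At 0 h, 1 h and 12 h, mean FPKM was 560.0, 545 and 412 for Tyrobp, 90.5, 81.0 and 47.5 for Trem2, and 66.1, 61.0 and 47.5 for Csf1r. Itgam, at 27.9, 21.6 and 70.3 FPKM, was highest at 12 h, and Cx3cr1, at 6.27, 3.29 and 3.93 FPKM, was highest in untreated cells. P2ry12 and C1qa stood between 0.0738 and 1.24 FPKM in the group means. The part of these shifts in the results below was not tested. Markers of astrocytes, neurons, oligodendrocytes and fibroblasts were not among the listed genes and were not analysed here. Libraries of a group correlated at 0.9981 to 0.9986 across genes in log2(FPKM + 1), against 0.9241 to 0.9698 between groups. Summed over the listed genes, untreated libraries held 195872 to 198075 FPKM, 1 h libraries 203515 to 205413 and 12 h libraries 223720 to 228207. In bulk RNA, fewer cells with a transcript and less of it per cell cannot be told apart.

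The promoters of the genes were searched for the HIF core. RefSeq promoter windows (GRCm38.p6, from 250 bases before to 50 after a start site) were held for 8 of the 10 genes, in 12 windows, because Kdm3a and Mxi1 have several start sites. Bnip3l and Ndrg1 had no entry. At least 1 core, on either strand, was found in 9 of the 12 windows and in all 8 genes. The same letters were found in 63.7% of the 5771 windows of tested genes and in 43.8% of all 32851 windows, so a core is common in such windows. An E-box, CACGTG, which holds the ACGTG core on both strands, was found in 2 of the 12 windows, those of Bnip3 and Hif1a, against 10.7% of windows of tested genes. The κB motif was found in none of the 12 windows, against 7.49% of windows of tested genes. At that share, none in so few windows is no result about the members. A match describes the letters and is not evidence of binding.

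The stretches below are shown because they carry the upstream cores of the sensors, of the mitochondrial genes Bnip3 and Higd1a, of Mxi1 and Kdm3a, and of Hif1a. Each is on the strand of its gene, with the cores in capitals; a core on the opposite strand reads CACGT or CACGC. Mxi1 has a stretch at each of the 2 start sites that hold one. For Hif1a the window belongs to a start site inside the annotated gene.
Egln1 (chr8:124949308-124949390, minus strand): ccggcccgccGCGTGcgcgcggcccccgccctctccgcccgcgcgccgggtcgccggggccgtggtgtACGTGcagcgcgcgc
Egln3 (chr12:54204089-54204113, minus strand): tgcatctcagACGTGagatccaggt
Bnip3 (chr7:138909527-138909633, minus strand): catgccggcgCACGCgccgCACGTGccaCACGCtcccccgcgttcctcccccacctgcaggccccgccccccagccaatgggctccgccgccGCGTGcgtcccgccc
Higd1a (chr9:121857848-121857876, minus strand): ggtctagcctGCGTGCGTGgcgttcgcgg
Mxi1 start 2 (chr19:53329337-53329361, plus strand): tcggcacccgACGTGcactggcggg
Mxi1 start 3 (chr19:53329660-53329684, plus strand): cggatgatcaACGTGcagcgcctgc
Kdm3a (chr6:71632930-71632954, minus strand): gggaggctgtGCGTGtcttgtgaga
Hif1a (chr12:73907722-73907811, plus strand): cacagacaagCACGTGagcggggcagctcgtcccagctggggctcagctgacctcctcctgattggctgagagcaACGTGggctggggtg

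The windows differed in how many cores they held and where. Counted from the start site, with negative positions upstream, Bnip3 held 5 cores between -117 and -31, and Fam162a held 6 upstream cores. The count for Bnip3 takes its E-box, at -108 to -103, once on each strand. Egln3 held 1 core, starting at -229, and Egln1 held 2, starting at -126 and -68. Higd1a held 2 upstream cores and 1 within the transcript, starting at 44.

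**Figure D1:**
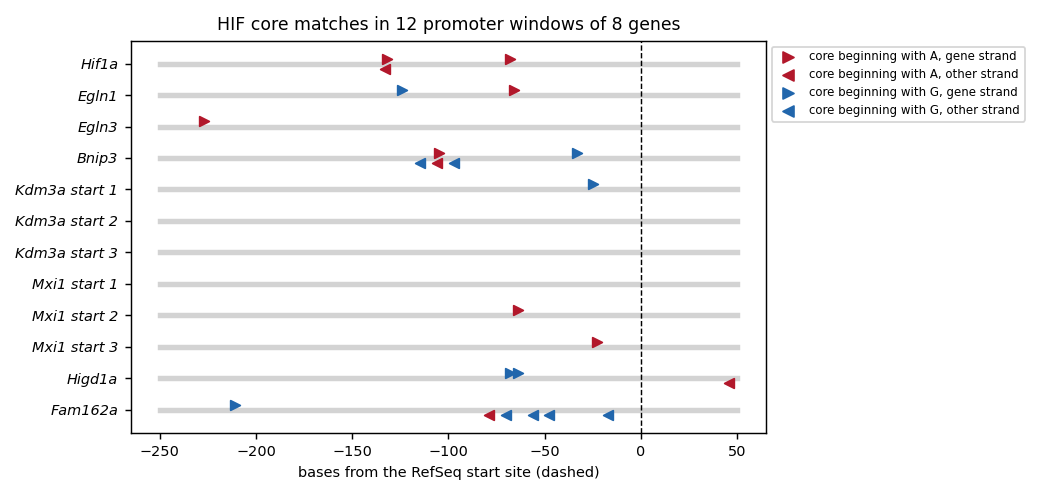
Position of each HIF core match in the 12 promoter windows of 8 genes, in bases from the RefSeq start site; arrowheads give the strand and colours the first letter of the core. Most matches lie between -135 and the start site, and 3 of the 12 windows hold none.

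Hif1a was the only one of the 10 genes that rose above its untreated level after LPS. It stood at 39.2, 41.5 and 43.0 FPKM in untreated cells, 47.7, 47.4 and 50.4 FPKM at 1 h, and 60.2, 58.1 and 58.6 FPKM at 12 h. No library of a later time overlapped one of an earlier time. On the log2(FPKM + 1) scale, on which all differences below are given, Hif1a was higher by 0.23 at 1 h than in untreated cells (SE 0.037, limma adjusted p = 0.000134) and by 0.51 at 12 h (adjusted p = 1.23e-08). At 12 h it was higher than at 1 h by 0.28 (adjusted p = 8.12e-06). Its mean of 59.0 ± 1.06 FPKM at 12 h was 1.43 times that of untreated cells, 41.3 ± 1.90 (SD, n = 3 each). A gene was called changed at a Benjamini-Hochberg adjusted p under 0.05 over all tested genes.

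The other 9 members all fell within 1 h of LPS. In that comparison limma called 1969 of 5643 tested genes lower, 34.9%, and 1361 higher, 24.1%. The median log2 difference of the 10 members was -0.52, against -0.03 over all tested genes. At 12 h, 8 members were lower than in untreated cells and 1 was higher, beside 40.6% and 41.1% of tested genes, with a median of -0.60 against 0.03 over all. Between 12 h and 1 h, 5 members were higher and 3 lower at 12 h, beside 41.9% and 43.6% of tested genes. Only the shares between 12 h and 1 h are near those of all tested genes. The members were chosen with earlier results of these data known, so these counts and medians describe the list and are no test of it.

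**Figure D2:**
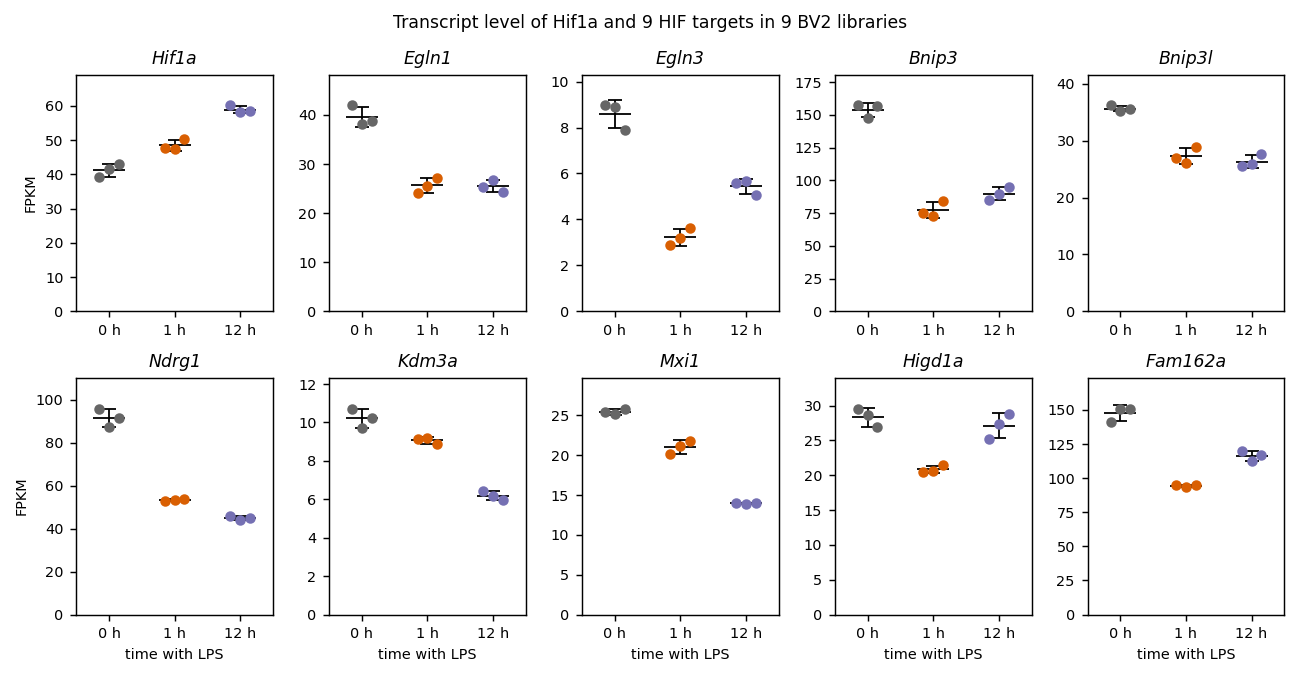
FPKM of the 10 genes in each of the 9 libraries by time with LPS (0 h, untreated); points are libraries, and bars are the mean and SD of 3. Hif1a is highest at 12 h, at 58.1 to 60.2 FPKM, and the other 9 genes have their highest mean in untreated cells.

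The oxygen sensor genes among the members, Egln1 and Egln3, both fell early, and Egln3 came back part of the way. Hif1an, from the list of HIF subunits and regulators described below, did not share the fall. It was higher by 0.14 at 1 h (limma adjusted p = 0.0241) and differed by -0.01 at 12 h (adjusted p = 0.877). Egln1, which encodes PHD2, the main prolyl hydroxylase of HIF-1α in cells with ample oxygen, stood at 41.9, 38.2 and 38.8 FPKM in untreated cells. It stood at 24.1, 25.6 and 27.1 FPKM at 1 h and at 25.3, 26.7 and 24.3 FPKM at 12 h. Both groups with LPS lay below all untreated libraries and overlapped each other. Egln1 was lower by 0.61 at 1 h (limma adjusted p = 1.11e-07) and by 0.62 at 12 h (adjusted p = 2.58e-08). Its difference between 12 h and 1 h was -0.01 (95% interval -0.11 to 0.10, adjusted p = 0.867), which did not pass the test.

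Egln3, which encodes PHD3 and is itself strongly induced by HIF in low oxygen, had the lowest level and the largest early fall of the 10 genes. It stood at 8.96, 8.91 and 7.88 FPKM in untreated cells, 2.88, 3.18 and 3.61 FPKM at 1 h, and 5.58, 5.68 and 5.05 FPKM at 12 h. The 3 groups did not overlap, and the 12 h libraries lay between the others. Egln3 fell to 37.6% of its untreated mean at 1 h, a log2 difference of -1.18 (SE 0.068, limma adjusted p = 2.41e-09). At 12 h it was at 63.3% of the untreated mean (log2 difference -0.57, adjusted p = 1.94e-06), and it was higher than at 1 h by 0.61 (adjusted p = 1.19e-06).

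The balance of the sensors changed for a time. In FPKM, Egln3 over Egln1 was 0.214, 0.233 and 0.203 in untreated libraries, 0.119, 0.124 and 0.133 in 1 h libraries, and 0.220, 0.213 and 0.208 in 12 h libraries. The log2 ratio of FPKM + 1 at 1 h was lower by 0.57 than in untreated cells and did not overlap it (exact two-sided permutation p = 0.1, the smallest that 3 against 3 libraries allow). At 12 h it differed from untreated cells by 0.05, with overlapping libraries (exact p = 0.5).

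Bnip3 and Bnip3l, whose proteins sit in the outer mitochondrial membrane and draw the autophagy machinery to worn mitochondria, fell to different extents. Bnip3 had the highest mean of the 10 genes in untreated cells, at 157, 148 and 156 FPKM, although Fam162a overlapped it there. It stood at 75.0, 72.7 and 83.9 FPKM at 1 h and at 85.1, 89.6 and 94.8 FPKM at 12 h. The groups did not overlap, and the 1 h libraries were the lowest. Bnip3 was at 50.2% of its untreated mean at 1 h (log2 difference -0.99, limma adjusted p = 5.33e-10) and at 58.4% at 12 h (-0.77, adjusted p = 2.79e-09). The gain of 0.22 between 1 h and 12 h passed the test (adjusted p = 0.000962).

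Bnip3l, also called NIX, stood at 36.2, 35.3 and 35.5 FPKM in untreated cells, 26.9, 26.1 and 28.9 FPKM at 1 h, and 25.5, 25.8 and 27.7 FPKM at 12 h. Both LPS groups lay below the untreated one and overlapped each other. Its log2 difference was -0.37 at 1 h (limma adjusted p = 3.66e-06) and -0.42 at 12 h (adjusted p = 2.74e-07). Between 12 h and 1 h it was -0.05 (95% interval -0.14 to 0.04, adjusted p = 0.26).

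Bnip3 over Bnip3l in FPKM was 4.34, 4.19 and 4.41 in untreated libraries, 2.79, 2.78 and 2.90 at 1 h, and 3.34, 3.47 and 3.43 at 12 h. The ratio did not overlap between any of the groups. On the log2 scale it was lower than in untreated cells by 0.61 at 1 h and by 0.35 at 12 h, and higher by 0.27 at 12 h than at 1 h (exact two-sided permutation p = 0.1 each, the smallest possible).

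**Figure D3:**
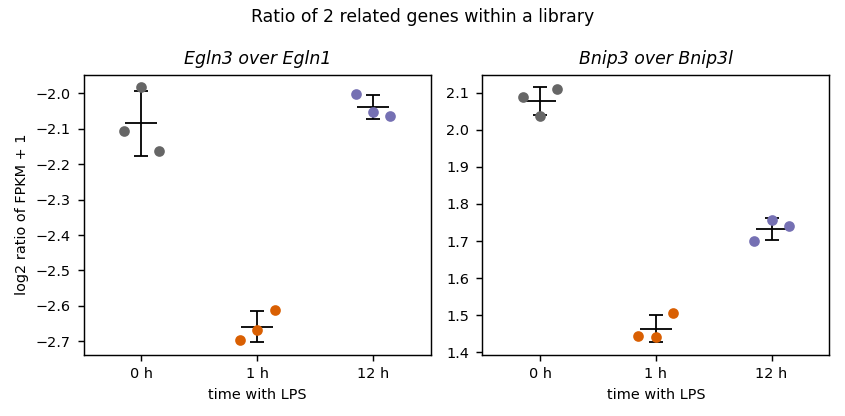
Log2 ratio of FPKM + 1 of Egln3 over Egln1 and of Bnip3 over Bnip3l in each library by time with LPS; points are libraries, bars the mean and SD of 3. Both ratios are lowest at 1 h; at 12 h the first overlaps its untreated values and the second lies between the other groups.

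Higd1a and Fam162a, the other mitochondrial genes, fell at 1 h and regained part of the loss. Higd1a encodes a small inner membrane protein that works with the respiratory chain. It stood at 29.6, 28.6 and 26.9 FPKM in untreated cells, 20.5, 20.6 and 21.5 FPKM at 1 h, and 25.3, 27.3 and 28.8 FPKM at 12 h. The 12 h and untreated libraries overlapped, and the 1 h libraries lay below both. It was lower by 0.42 at 1 h than in untreated cells (limma adjusted p = 3.76e-06). At 12 h the difference from untreated cells was -0.06 (95% interval -0.16 to 0.04, adjusted p = 0.239), but under quantile normalization it was -0.14 and was called lower (adjusted p = 0.0189).

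Fam162a, whose human protein promotes mitochondrial cell death in low oxygen, stood at 141, 151 and 151 FPKM in untreated cells. It stood at 94.9, 93.6 and 94.99 FPKM at 1 h and at 119.6, 113 and 117 FPKM at 12 h. The groups did not overlap, with the 12 h libraries in between. It was at 64.0% of the untreated mean at 1 h and at 78.7% at 12 h, with log2 differences of -0.64 (limma adjusted p = 5.64e-10) and -0.34 (adjusted p = 1.83e-07). On the log2 scale, the share of the 1 h fall regained by 12 h was 85.4% for Higd1a, 51.5% for Egln3, 46.4% for Fam162a and 22.0% for Bnip3. These shares hold for the main processing only. Across the alternatives given below, the 12 h difference from untreated cells ranged from -0.14 to -0.01 for Higd1a and -0.65 to -0.52 for Egln3. It ranged from -0.51 to -0.32 for Fam162a and -0.95 to -0.73 for Bnip3. Against 1 h, the 12 h level was higher by 0.36 for Higd1a (adjusted p = 6.21e-06) and by 0.30 for Fam162a (adjusted p = 9.75e-07), and limma called Egln3 and Bnip3 higher as well.

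Ndrg1, Kdm3a and Mxi1 went on falling between 1 h and 12 h. Ndrg1, which encodes a stress-responsive protein linked to differentiation and growth arrest, stood at 95.8, 87.4 and 91.3 FPKM in untreated cells. It stood at 52.8, 53.2 and 53.7 FPKM at 1 h and at 45.7, 43.8 and 45.0 FPKM at 12 h. The groups did not overlap, and most of its fall had taken place by 1 h. Relative to untreated cells the log2 difference of Ndrg1 was -0.77 at 1 h (limma adjusted p = 1.33e-10) and -1.01 at 12 h (adjusted p = 2.55e-12), the largest late fall of the 10 genes. Between 12 h and 1 h the difference was -0.24 (adjusted p = 1.33e-05), and the 12 h mean was 49.0% of the untreated mean.

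Kdm3a, which encodes a histone demethylase that needs oxygen, had the smallest early fall. It stood at 10.7, 9.71 and 10.2 FPKM in untreated cells, 9.13, 9.21 and 8.88 FPKM at 1 h, and 6.41, 6.17 and 5.97 FPKM at 12 h. The 1 h libraries lay just below the untreated ones, and the 12 h libraries well below both. Its log2 difference at 1 h was -0.15 (limma adjusted p = 0.0101); without untreated library 1 it was -0.12 and no longer passed (adjusted p = 0.0519). At 12 h it was lower than in untreated cells by 0.64 (adjusted p = 8.16e-09) and lower than at 1 h by 0.49 (adjusted p = 1.96e-07).

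Mxi1, which encodes a partner of MAX that opposes MYC, stood at 25.4, 25.1 and 25.9 FPKM in untreated cells, 20.1, 21.2 and 21.8 FPKM at 1 h, and 14.0, 13.8 and 14.0 FPKM at 12 h. The groups were separate at each step. Mxi1 was lower by 0.26 at 1 h than in untreated cells (limma adjusted p = 2.95e-05), by 0.82 at 12 h (adjusted p = 4.67e-11), and by 0.56 at 12 h than at 1 h (adjusted p = 3.96e-09). Its 12 h mean was 54.8% of the untreated mean.

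**Figure D4:**
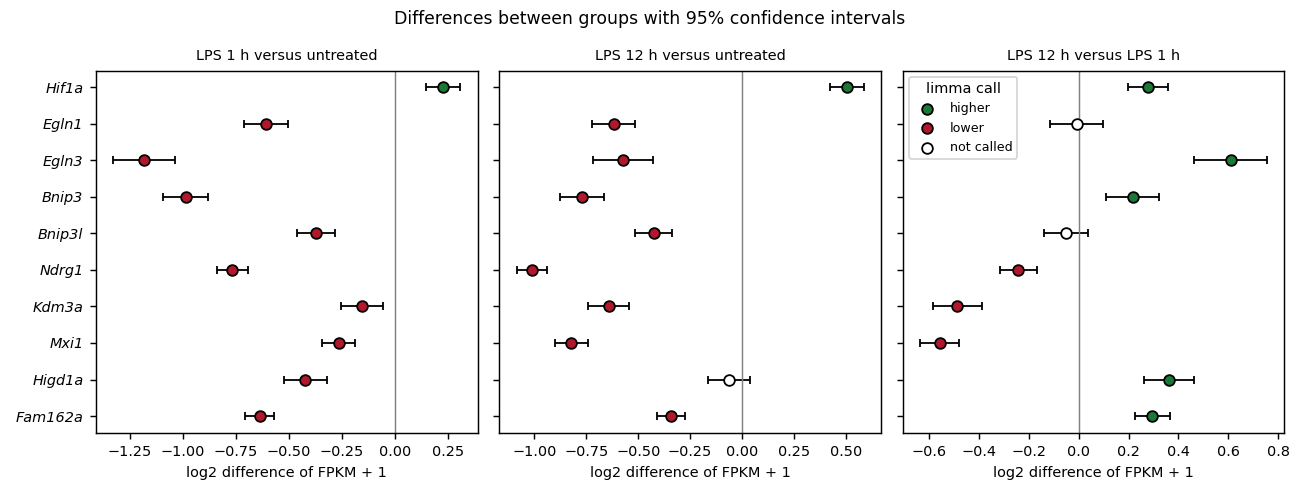
Log2 difference of FPKM + 1 for the 10 genes in the 3 comparisons, with 95% confidence intervals from limma; green is called higher, red called lower, white not called. At 1 h, 9 genes lie left of 0; between 12 h and 1 h, 5 lie right of 0 with an interval clear of it and 3 left.

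The order of the levels, which FPKM allows between genes because it is per length, changed with time. In untreated cells Bnip3 and Fam162a led with overlapping libraries, followed by Ndrg1, and Hif1a and Egln1 overlapped. At 1 h and 12 h Fam162a led, with every library above those of Bnip3. By 12 h Hif1a, at 58.1 to 60.2 FPKM, lay above Ndrg1, at 43.8 to 45.7, whereas in untreated cells Hif1a, at 39.2 to 43.0, lay below Ndrg1, at 87.4 to 95.8. Egln3 and Kdm3a were the lowest in all 3 groups.

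Reads from overlapping transcripts could enter these values. In GENCODE M21, 6 of the 10 genes (Hif1a, Bnip3, Ndrg1, Mxi1, Higd1a and Fam162a) overlap a gene on the opposite strand, and Bnip3l has a named pseudogene. The libraries were stranded per the labels, but whether strand was used in counting is not given in the sources used here.

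The genes around HIF were described from lists, by how many tested genes passed in each direction. Over all tested genes, 24.1% rose and 34.9% fell at 1 h, and 41.1% rose and 40.6% fell at 12 h. Of 23 genes for HIF subunits and regulators, 9 were in the table and 7 tested; 4 rose and 1 fell at 1 h (median 0.14), and 1 rose and 1 fell at 12 h (median 0.02). Without 1 h library 2 or 1 h library 3 the count of 4 was 2. Cited2, which competes with HIF-1α for the coactivators CBP and p300, averaged 34.7 FPKM in untreated cells, 83.8 at 1 h and 34.4 at 12 h. The log2 difference of Cited2 was 1.25 at 1 h (limma adjusted p = 3.47e-13) and -0.01 at 12 h (adjusted p = 0.779), where quantile normalization gave -0.12 and a call. Epas1, which encodes HIF-2α, averaged 5.26, 3.67 and 2.81 FPKM at 0 h, 1 h and 12 h. It was lower by 0.42 at 1 h (adjusted p = 1.17e-05) and by 0.72 at 12 h (adjusted p = 1.25e-08), while Hif1a rose. Siah2, a ubiquitin ligase that targets prolyl hydroxylases, was higher by 0.59 at 12 h (adjusted p = 9.92e-07).

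Of 40 other HIF targets outside glycolysis, 30 were in the table and 27 tested; at 1 h 17 of these fell and 6 rose, with 4 not called (median -0.22), beside 34.9% lower and 24.1% higher of all tested genes. At 12 h the median was -0.05, with 12 lower, 11 higher and 4 not called, which is near the 40.6% lower and 41.1% higher of all tested genes. Between 12 h and 1 h, 17 were higher and 9 lower, beside 41.9% and 43.6% of all tested genes. The median was 0.19 against 0.01 over all tested genes. Ddit4, an inhibitor of mTORC1 that HIF induces, was at 21.4% of its untreated mean at 1 h and 62.6% at 12 h. Ankrd37 averaged 21.0 FPKM in untreated cells, 10.6 at 1 h and 4.30 at 12 h, a log2 difference of -2.06 at 12 h (limma adjusted p = 3.77e-13). Cxcr4, a chemokine receptor gene, fell at 12 h by 2.10 (adjusted p = 2.75e-11). Pnrc1 went the other way early, higher by 1.01 at 1 h (adjusted p = 6.24e-10), and was lower by 0.67 at 12 h. Hmox1, 1 of the 11 targets higher at 12 h, was lower by 0.63 at 1 h and higher by 0.95 at 12 h (adjusted p = 6.06e-12). Genes were named by the size of a difference, so the counts and not the names describe the list.

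Glycolytic HIF targets, 18 tested of 21, shared the early fall, and most were higher at 12 h than at 1 h. At 1 h the list had 17 falls, no rise and 1 gene not called (median -0.27), beside 34.9% lower and 24.1% higher of all tested genes. At 12 h 12 rose and 6 fell, with a median of 0.11, beside 41.1% higher and 40.6% lower of all tested genes. Under quantile normalization 5 rose and 10 fell, so the late direction of the list depends on scaling. Between 12 h and 1 h, 15 were higher and 2 lower, with a median of 0.35, beside 5 and 3 of the 10 members with a median of 0.10. Over all tested genes 41.9% were higher and 43.6% lower. Slc2a1, the glucose transporter GLUT1, was higher at 12 h than in untreated cells by 0.75 (limma adjusted p = 2.25e-09). Pdk1, a mitochondrial kinase that inhibits pyruvate dehydrogenase, was lower by 0.68 at 12 h (adjusted p = 3.15e-09) and Slc2a3, the transporter GLUT3, had a log2 difference of -1.20 (adjusted p = 3.20e-09). The 1 h and 12 h comparisons with untreated cells share the untreated libraries, so their values are given side by side and no correlation between them was taken.

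**Figure D5:**
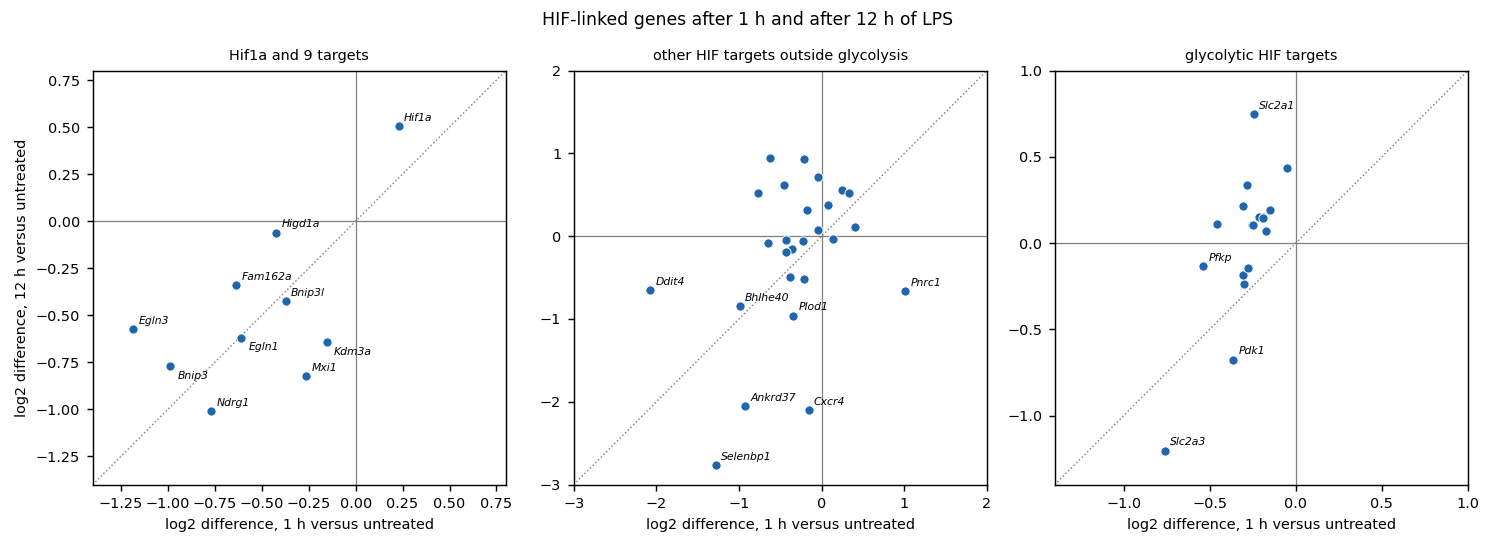
Log2 difference of FPKM + 1 at 1 h (horizontal) and at 12 h (vertical), each against the same untreated libraries, for Hif1a and 9 targets, other targets outside glycolysis and 18 glycolytic targets; a point is a gene, the dotted line marks equal values, and axis ranges differ between panels. Of the 10 genes only Hif1a lies above and right of 0. At 12 h 12 of 18 glycolytic targets were called higher, beside 41.1% of all tested genes, against 5 under quantile normalization.

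Relatives of the members by function were called in both directions at 1 h. Over all tested genes 24.1% were called higher and 34.9% lower at 1 h, and 41.1% and 40.6% at 12 h. The mitophagy counts below are not far from these shares and are no result about the list. Of 26 genes for mitophagy and autophagy receptors and machinery, 13 were tested; 3 rose and 3 fell at 1 h (median 0.00), and 4 rose and 5 fell at 12 h (median 0.05). Sqstm1, a cargo receptor, was higher by 1.04 at 1 h (limma adjusted p = 1.81e-10) and by 1.41 at 12 h (adjusted p = 2.55e-12). Pink1, the kinase that flags damaged mitochondria, was lower by 0.94 at 12 h (adjusted p = 5.28e-09), and the autophagy kinase genes Ulk2 (-0.54) and Ulk1 (-0.52) fell as well.

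Of 24 histone demethylase genes, 10 were tested besides Kdm3a, among them Kdm4c, which the list of other targets also holds. At 1 h 2 rose and 3 fell (median -0.05), but no fall passed without untreated library 2, and 1 each without 1 h library 2 or 3. At 12 h 2 rose and 6 fell (median -0.39), beside 41.1% higher and 40.6% lower of all tested genes. The 1 h counts are near the 24.1% higher and 34.9% lower of all tested genes. Kdm3b, the closest relative of Kdm3a, was lower by 0.56 at 12 h (limma adjusted p = 3.36e-08), beside 0.64 for Kdm3a, and Phf8 by 0.74 (adjusted p = 5.04e-09). Kdm6b averaged 2.18 FPKM in untreated cells, 8.46 at 1 h and 2.82 at 12 h.

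Among 14 partners in the MAX network, 8 were tested besides Mxi1. At 1 h 3 rose and 3 fell (median 0.00), and at 12 h 3 rose and 4 fell (median -0.12). Without 12 h library 3 the late rises numbered 1. Over all tested genes 24.1% rose and 34.9% fell at 1 h, and 41.1% and 40.6% at 12 h, not far from these counts. Mxd4, like Mxi1 an antagonist of MYC, was lower by 2.23 at 12 h (limma adjusted p = 1.29e-10) and Mxd3 by 0.84 (adjusted p = 2.79e-06). Myc, one of the 3 early rises, averaged 0.422 FPKM in untreated cells, 2.06 at 1 h and 0.604 at 12 h. It passed the filter on low values only through its 1 h level, so its call there is no independent result. Of 11 relatives by gene family, 2 were tested, and Epas1 and Ndrg3 both fell at both times (median -0.28 at 1 h and -0.58 at 12 h). Ndrg3 was lower by 0.14 at 1 h (adjusted p = 0.0108; without 1 h library 3 adjusted p = 0.0560) and by 0.44 at 12 h (adjusted p = 2.23e-07).

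The genes most like a member in pattern were sought among 4350 tested genes with a mean of at least 5 FPKM, by the distance between the 3 group means of log2(FPKM + 1) after centring. For Hif1a they were Cbwd1 (distance 0.0131), Srpr (0.0136) and Fastkd3 (0.0157), and Srpr averaged 54.4, 63.1 and 77.4 FPKM at 0 h, 1 h and 12 h. For Bnip3 they were Map3k1 (0.0540), Bhlhe40 (0.0577) and Vsir (0.0661). Bhlhe40, itself known as a HIF target, averaged 24.7, 11.9 and 13.3 FPKM. For Egln3 they were S1pr2 (0.171), Cdkn1b (0.177) and Cd300lb (0.184). Distances were not scaled to the size of a gene's changes, which were larger for Egln3 than for Hif1a, so they are not compared between members. These are descriptions over 3 group means and 9 libraries.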

How the data were processed

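RNA-seq of BV2 cells was used as 1 table of FPKM values that the authors deposited, with no further scaling stated. Tools listed in the submitters' processing notes, with neither role nor version, are HISAT2, Trimmomatic, HTSeq, DESeq and Cufflinks; the build listed is GRCh38, a human build, although the file's cross references are mouse; the build behind the values is unclear. The deposited table also holds a p-value and q-value, a rank score and a flag per gene, whose test is not stated in the sources used here; they were not used to call genes. Read counts and depth are not given, so precision rests on the spread between 3 libraries.

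Values were compared as log2(FPKM + 1), which shrinks differences of low genes. Genes with a mean of at least 1 FPKM (5643 of 6462) entered a linear model in limma 3.58.1 (R 4.3.3) (1 mean per group, eBayes with trend), with Benjamini-Hochberg adjustment. The fit was run on simulated data with known changes in fewer genes than were called here, so that run gives no rate of false calls for these data. Ratios of related genes were tested by exact permutation over libraries. Group names follow the titles of the samples. Library numbers did not pair the samples (residual correlations of -0.067 to 0.128 between same-numbered libraries). The members and gene lists were chosen with earlier results of these data known. Named genes are the members, up to 4 called genes with the largest differences per list and comparison, and the 3 genes nearest in pattern to Hif1a, Egln3 and Bnip3. Hif1an, Plin2, Hilpda and Eno1 were named outside that rule, to show values that it leaves out. The lists were HIF subunits and regulators, other targets outside glycolysis, glycolytic targets, mitophagy genes, histone demethylases, MAX partners and relatives by family. Of the other targets outside glycolysis, 1 gene is counted but not named or drawn, as it is not reported here. Promoter sequences are RefSeq's, GRCm38.p6.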

Additional observations from a re-analysis of the deposited data

Results flagged for a closer look

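Among the members and the genes named for the size of a difference, 6 were called in opposite directions at 1 h and 12 h against the same untreated libraries. Each also had a passing test of 12 h against 1 h. None of them was one of the 10 genes described above. The difference between 12 h and 1 h was 0.99 for Slc2a1 (-0.24 at 1 h and 0.75 at 12 h), 0.62 for Hk2, 0.57 for Pgk1 and 0.53 for Hk1, all glycolytic targets. For Hmox1, the heme oxygenase gene, it was 1.58 (-0.63 and 0.95). For Pnrc1 it was -1.68, with a rise of 1.01 at 1 h and a difference of -0.67 at 12 h. The late value of Pgk1 depends on scaling. Genes not picked for size were not screened, and more of them had such opposite calls. Among these were Plin2 (-0.21 at 1 h and 0.93 at 12 h) and the glycolytic target Eno1 (-0.19 and 0.15).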

How the results depend on the processing

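Of 600 recomputed differences of the 10 genes under 20 alternatives, 598 kept their direction and side of the threshold; the exceptions were Kdm3a at 1 h and Higd1a at 12 h, given above. Alternatives were other pseudocounts, filters, scalings and spread models, leaving out each library, and, chosen after seeing the data, adjustment over 21900 RefSeq protein-coding genes. With the library number as a replicate block, 9 members were lower and 1 higher at 1 h, 8 and 1 at 12 h, and 3 and 5 between 12 h and 1 h, as without it. The log2 ratio of Egln3 over Egln1 at 12 h against untreated cells turned to -0.012 with a pseudocount of 0.1, and Pgk1 at 12 h to -0.13 under quantile normalization; the cause was not tested. For short lists, counts moved by more than 1.5 times: under quantile normalization 4 regulators fell at 12 h instead of 1, and 8 mitophagy genes instead of 5. With a mean of at least 5 FPKM, where fewer genes are tested, 3 demethylases fell at 12 h instead of 6 and 3 mitophagy genes instead of 5. That filter left Epas1, which is both a regulator and a relative by family, untested, so it was no longer counted as falling at 1 h or 12 h. With it 1 demethylase rose at 1 h and at 12 h instead of 2, and 1 MAX partner rose at 1 h instead of 3. The genes no longer counted lay below that mean and were not tested. Over all RefSeq protein-coding genes, 2 regulators instead of 4 rose at 1 h, 1 demethylase instead of 3 fell at 1 h, and 1 MAX partner instead of 3 rose at 12 h. Without 12 h library 1, 2 regulators rose at 12 h instead of 1. With all genes tested, 3 regulators were higher at 12 h than at 1 h instead of 1. The regulators that only this setting tests, Hif3a and Arnt2, averaged 0.237 and 0.393 FPKM at 12 h, under the filter of 1 FPKM. Depth is not given, so the precision of Egln3, the lowest of the 10 genes, rests on the library spread.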
